A study of Mus musculus with 12 samples.

Results

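Expression of 10 genes of melanin synthesis and of the melanosome was followed in B16F10 cells, a pigmented mouse melanoma line derived from C57BL/6 mice. The genes were chosen by name (Tyr, Tyrp1, Dct, Pmel, Mlana, Mc1r, Slc45a2, Oca2, Gpr143 and Trpm1). Each matched 1 of the 54232 gene rows of the deposited counts, and all 10 passed the filter on low counts. Bulk RNA was sequenced in 12 libraries of 4 groups, with 3 libraries each.

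WT libraries came from untreated cultured cells. The Relapsed group held 3 cell lines (ITF1, Rel and ITM) that had been grown in culture from tumors that came back after immunotherapy, so its libraries are 3 different lines rather than repeats of 1. Lyso cells had been exposed to granules released by T cells, which the labels call lysosomes, for 48 h by the labels and for a shorter time by the study's methods. The Tumor libraries (1, 3 and 4) were B16F10 cells sorted by FACS from relapsed tumors, with RNA extracted at once. The labels give strain C57BL/6 and a mouse age of 6 weeks for all libraries, and name no gene alteration in any group. In the study's methods, the immunotherapy was an intratumoral injection of anti-CD40, TNFα and an antibody against TRP1, the protein made from Tyrp1, or a transfer of T cells that recognize TRP2 (from Dct), gp100 (from Pmel) or TRP1. The labels do not say which of these preceded a given library. Nor do they say whether the WT, Lyso or Tumor libraries came from separate cultures or animals, so the p-values measure only the spread between libraries. In the main fit that spread is 1 estimate per gene over all 12 libraries. It therefore also holds the differences between the 3 Relapsed lines.

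Melanin is made inside melanosomes, organelles of the melanocyte that are related to lysosomes. Tyrosinase starts the pathway from tyrosine, its relatives TYRP1 and DCT shape the later steps towards eumelanin, and PMEL forms the fibrils on which the pigment is laid down. Most of these genes are targets of MITF, the master transcription factor of the melanocyte lineage, which binds E-boxes in their promoters, and several of the proteins are classical T-cell antigens of melanoma.

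Promoters are shown because these genes share a known regulator. RefSeq entries on GRCm38.p6 matched 6 of the 10 genes (Tyr, Tyrp1, Dct, Mc1r, Oca2 and Trpm1), which fixed the set irrespective of how the genes changed. Pmel, Mlana, Slc45a2 and Gpr143 were not matched. For the 6 genes the 250 bases before each annotated start were searched on both strands for the E-box CATGTG. It was found in all 6 genes, although not in the second entry of Trpm1. Of 32851 single promoter windows of the same length, 12.3% held it. Its longer form TCATGTG, which contains the shorter one, was found in 5 of the 6 genes, Oca2 being the exception, and in 3.25% of all windows. The related E-box CACGTG was found in the second entry of Trpm1 and in none of the other genes, against 6.02% of all windows. The E-box ended 16 bases before the RefSeq start in Tyr and 41 bases before it in Tyrp1. In the GENCODE annotation used for gene positions, Tyrp1 starts at 80834123, inside its printed window and before this E-box. By that start the E-box of Tyrp1 lies within the gene. Dct held the E-box in both orientations, 227 and 145 bases before the RefSeq start. A match describes letters in a window and shows no binding. The genes were known beforehand to share a regulator that binds E-boxes, so the shares are given as a description. The 5 promoters with the longer form are printed with the shorter E-box, in either orientation, in capitals. They lie at chr7:87493513-87493762 (minus strand), chr4:80833963-80834212 (plus strand), chr14:118052247-118052496 (minus strand), chr8:123406832-123407081 (plus strand) and chr7:64153585-64153834 (plus strand).
Tyr: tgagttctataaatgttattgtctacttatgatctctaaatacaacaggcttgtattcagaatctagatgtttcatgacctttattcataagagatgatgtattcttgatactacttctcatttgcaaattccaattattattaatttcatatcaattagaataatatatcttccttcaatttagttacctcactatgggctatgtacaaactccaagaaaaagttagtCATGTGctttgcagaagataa
Tyrp1: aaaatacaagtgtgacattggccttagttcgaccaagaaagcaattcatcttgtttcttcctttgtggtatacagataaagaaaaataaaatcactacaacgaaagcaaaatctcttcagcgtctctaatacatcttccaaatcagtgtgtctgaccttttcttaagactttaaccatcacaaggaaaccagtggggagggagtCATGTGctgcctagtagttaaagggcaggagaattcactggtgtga
Dct: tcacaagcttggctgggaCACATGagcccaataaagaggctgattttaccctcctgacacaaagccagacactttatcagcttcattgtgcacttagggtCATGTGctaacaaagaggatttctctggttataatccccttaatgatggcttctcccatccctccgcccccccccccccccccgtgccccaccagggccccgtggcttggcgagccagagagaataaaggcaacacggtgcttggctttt
Mc1r: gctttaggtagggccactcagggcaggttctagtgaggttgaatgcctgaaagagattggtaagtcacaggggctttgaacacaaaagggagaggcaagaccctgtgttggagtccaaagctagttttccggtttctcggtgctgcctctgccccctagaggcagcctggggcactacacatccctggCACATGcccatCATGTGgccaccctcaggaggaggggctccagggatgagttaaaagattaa
Trpm1: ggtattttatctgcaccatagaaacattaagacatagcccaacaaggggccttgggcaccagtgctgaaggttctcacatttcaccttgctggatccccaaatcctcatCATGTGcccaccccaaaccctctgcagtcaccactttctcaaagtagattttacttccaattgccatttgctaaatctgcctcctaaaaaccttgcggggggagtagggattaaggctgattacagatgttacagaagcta

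Total counts on genes were 1667398, 2350129 and 16384021 in WT 1, WT 2 and WT 3. They ran from 12749399 to 16402629 in the Relapsed lines, from 10895611 to 12675277 in Lyso and from 3102442 to 5049496 in Tumor. The 10 genes together took between 1.94% (Tumor 1) and 3.74% (Rel) of the counts on genes. Values are given as CPM, counts per library scaled to a common total by TMM, and differences as log2 fold changes from edgeR's quasi-likelihood test of 14924 genes in 1 fit of all 12 libraries. A gene was called at a Benjamini-Hochberg adjusted p under 0.05. The smallest count of any of the 10 genes was 89, for Oca2 in WT 1.

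Per kilobase of exons, the mean level in WT was highest for Tyrp1, at 3723 CPM per kb. Pmel followed at 1454, Dct at 1149 and Mlana at 948 CPM per kb. Slc45a2 had 238, Tyr 90.3, Mc1r 70.4 and Gpr143 28.1 CPM per kb, with Oca2 at 11.4 and Trpm1 at 11.0. Lengths were the merged exons of all annotated isoforms, such as 7108 bases for Tyr and 5895 for Dct. Which isoforms were expressed was not tested, so the order per kilobase depends on this choice. In CPM, Dct (6776) stood above Pmel (3334) in WT. Tyr, which starts the pathway, lay below Tyrp1, Pmel, Dct, Mlana and Slc45a2 by either measure.

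Tyrosinase (Tyr, ENSMUSG00000004651, chromosome 7, 87424771 to 87493512, minus strand) catalyses the first step. It stood at 873, 567 and 485 CPM in WT 1, 2 and 3, at 663, 1245 and 783 in ITF1, Rel and ITM, at 834, 917 and 940.2 in Lyso, and at 853, 892 and 894 in Tumor 1, 3 and 4. WT 1 lay within the range of every other group, while WT 2 and WT 3 lay below all other libraries. Tyr was called in no comparison, and between Tumor and Relapsed its log2 fold change was -0.03, with a 95% interval of -0.54 to 0.49.

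Tyrp1 (ENSMUSG00000005994, chromosome 4, 80834123 to 80851719, plus strand), the target of the antibody used in the therapy, was the most abundant of the 10 per kilobase in WT. It stood at 12406, 10299 and 8883 CPM in WT 1, 2 and 3, and at 11084, 13427 and 11699.6 in ITF1, Rel and ITM. Lyso had 10242, 10099.9 and 10362 CPM, and Tumor 1, 3 and 4 had 5946, 6779 and 7325. The 3 Tumor libraries lay below all 9 others. Tyrp1 was lower in Tumor than in WT by a log2 fold change of -0.66 (SE 0.18, edgeR adjusted p = 0.0251), than in Relapsed by -0.85 (SE 0.18, adjusted p = 0.00564) and than in Lyso by -0.61 (SE 0.18, adjusted p = 0.0274). These 3 comparisons share the Tumor libraries.

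Dct (ENSMUSG00000022129, chromosome 14, 118012790 to 118052244, minus strand), the dopachrome tautomerase, behaved differently in the sorted cells. It stood at 8014, 6639.7 and 5675 CPM in WT 1, 2 and 3, at 6747, 12329 and 8236 in ITF1, Rel and ITM, at 8451, 9074 and 9344 in Lyso and at 7471, 7559.97 and 7208 in Tumor. Tumor lay inside the range of WT and below all Lyso libraries. The log2 fold change of Tumor against WT was 0.13 (SE 0.22, edgeR adjusted p = 0.739).

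Pmel (ENSMUSG00000025359, chromosome 10, 128704195 to 128720238, plus strand), the fibril protein gp100, had its highest values in Lyso, at 6432, 5894 and 6048 CPM. WT 1, 2 and 3 had 4181, 3640.3 and 2179.7 CPM, ITF1, Rel and ITM had 2113, 5769.5 and 5129.9, and Tumor 1, 3 and 4 had 3172, 3843 and 3922. All Lyso libraries lay above every other library, while the remaining groups overlapped. Lyso against WT gave a log2 fold change of 0.88 (SE 0.32), which was not called (edgeR adjusted p = 0.163). Of the exonic bases of Pmel, 4.58% overlap Dgka on the other strand, and the strand setting of the counting is not given in the sources used here, so reads of such overlaps cannot be told apart.

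Mlana (ENSMUSG00000024806, chromosome 19, 29697824 to 29708634, plus strand) encodes the melanosomal antigen MART-1. WT 1, 2 and 3 had 1146, 1091 and 771 CPM, ITF1, Rel and ITM had 1069, 2049 and 1848, and Lyso had 1354, 1273 and 1319.97. Tumor 1, 3 and 4 had 676, 675 and 677 CPM, the closest agreement of 3 libraries among all genes and groups described here, and lay below all other libraries. Mlana was lower in Tumor than in Relapsed by a log2 fold change of -1.29 (SE 0.22, edgeR adjusted p = 0.00111) and than in Lyso by -0.96 (SE 0.22, adjusted p = 0.0063), while the difference from WT of -0.57 (SE 0.22) was not called (adjusted p = 0.0894).

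Mc1r (ENSMUSG00000074037, chromosome 8, 123407107 to 123410744, plus strand), the melanocortin receptor that turns on eumelanin synthesis, stood at 200.4, 271 and 298 CPM in WT 1, 2 and 3. ITF1, Rel and ITM had 399, 381 and 301 CPM, Lyso had 292, 258 and 265, and Tumor had 165, 199 and 203. The Relapsed lines lay above all WT libraries and Tumor overlapped WT through WT 1. Mc1r was lower in Tumor than in Relapsed by -0.93 on the log2 scale (SE 0.16, edgeR adjusted p = 0.00126) and than in Lyso by -0.52 (SE 0.16, adjusted p = 0.0313). Of its exonic bases, 17.9% overlap the antisense gene Gm38092, so its level is uncertain.

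Gpr143 (ENSMUSG00000025333, chromosome X, 152781921 to 152808646, plus strand), a receptor in the melanosome membrane that controls melanosome size and number, stood at 67.4, 57.8 and 42.8 CPM in WT 1, 2 and 3. ITF1, Rel and ITM had 42.3, 98.6 and 89.9 CPM, Lyso had 100.5, 111 and 109.8, and Tumor 1, 3 and 4 had 37.4, 29.2 and 37.7. Tumor lay below all other libraries and Lyso above all other libraries. Gpr143 was lower in Tumor than in Lyso by -1.63 on the log2 scale (SE 0.27, edgeR adjusted p = 0.000837), the largest called difference of the 10 genes, and than in Relapsed by -1.15 (SE 0.27, adjusted p = 0.00897).

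Slc45a2 (ENSMUSG00000022243, chromosome 15, 11000721 to 11029233, plus strand) and Oca2 (ENSMUSG00000030450, chromosome 7, 56239760 to 56536518, plus strand) encode transporters that set the ion balance and pH of the melanosome. Slc45a2 stood at 935, 659 and 536 CPM in WT 1, 2 and 3, at 403, 1295 and 977 in ITF1, Rel and ITM, at 1094, 1263 and 1289 in Lyso and at 848, 939.99 and 1043 in Tumor. Oca2 stood at 50.4, 44.8 and 40.2 CPM in WT, at 20.7, 139 and 55.5 in ITF1, Rel and ITM, at 109, 134 and 140.2 in Lyso and at 52.0, 59.4 and 49.9 in Tumor. For both genes all Lyso libraries exceeded all WT libraries, and ITF1 was the lowest of all 12. Neither gene was called in any comparison.

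Trpm1 (ENSMUSG00000030523, chromosome 7, 64153835 to 64269775, plus strand), a cation channel gene that also carries the microRNA miR-211, varied most of the 10 genes within WT. It stood at 305, 113 and 69.9 CPM in WT 1, 2 and 3, at 168, 994 and 614 in ITF1, Rel and ITM, at 575, 528 and 524 in Lyso and at 365, 491 and 562 in Tumor. All Lyso and all Tumor libraries lay above the 3 WT libraries, and ITF1 lay between WT 1 and WT 2. Its log2 fold changes against WT were 1.90 in Relapsed (SE 0.57), 1.77 in Lyso (SE 0.57) and 1.57 in Tumor (SE 0.57), none of them called (edgeR adjusted p of 0.276, 0.105 and 0.0722).

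**Figure D1:**
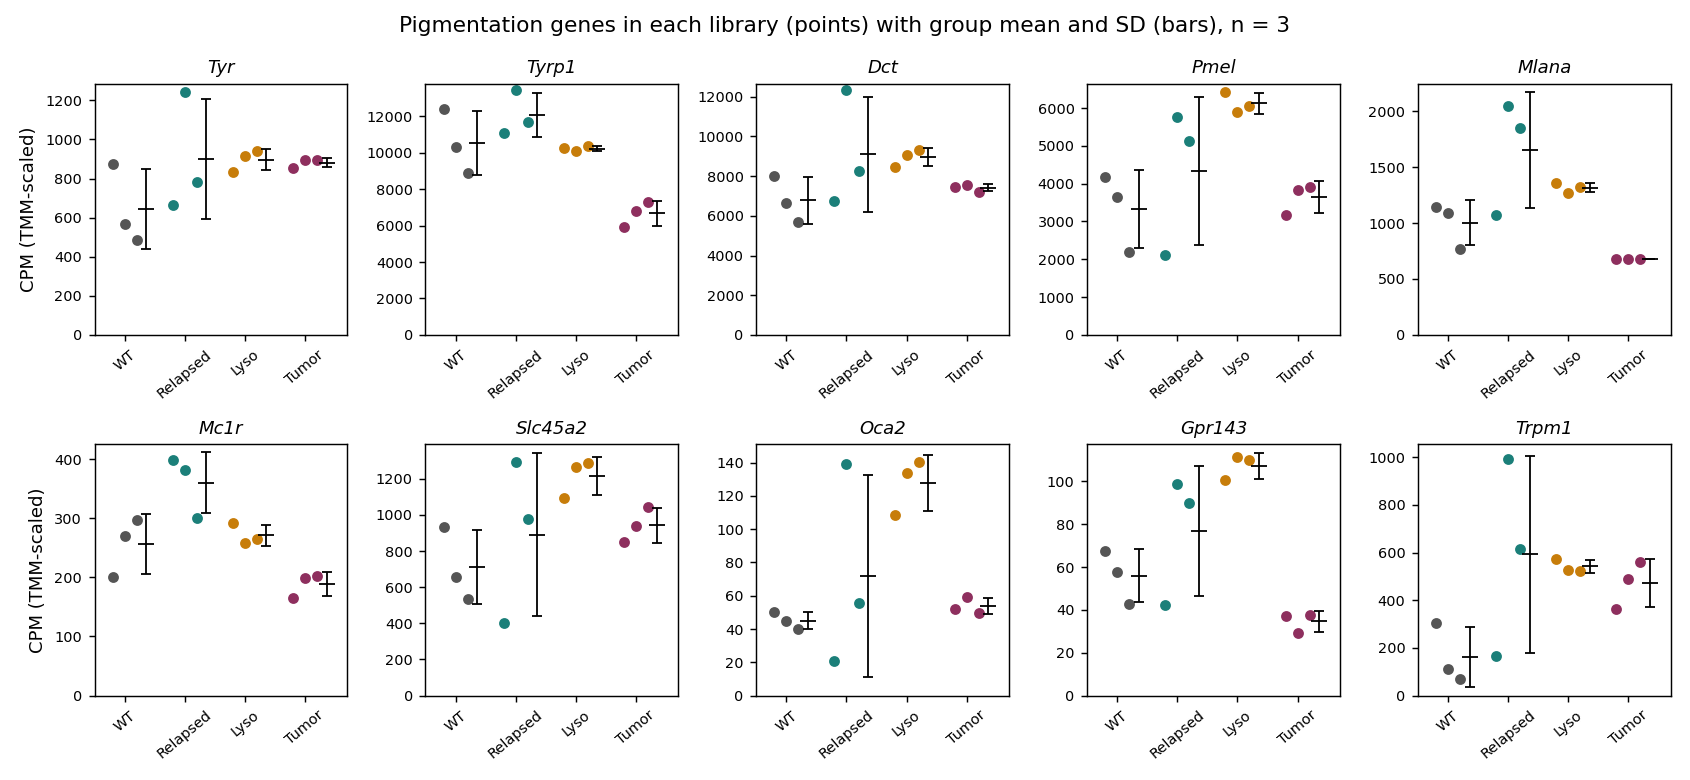
CPM of each of the 10 genes (vertical axes from 0) in the 12 libraries (points), by group, with the group mean and SD beside them (bars, n = 3). The 3 Tumor libraries sit below all others for Tyrp1, Mlana and Gpr143, Lyso sits above WT for 7 genes, and the Relapsed lines spread widely.

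The cultured Relapsed lines were compared with WT to ask whether lines grown out of relapsed tumors differ from the parental cells. None of the 10 genes was called in either direction (edgeR), beside 0.0134% of all genes tested called higher and 0.0268% called lower. DESeq2 called 0 of the 10 as well, beside 1.22% of all genes in either direction. All 10 had a log2 fold change above 0, with a median of 0.49 against 0.01 over all genes tested. At an unadjusted p under 0.05, 3 of the 10 passed (Mlana, Mc1r and Trpm1), against 11.0% of all genes, and the libraries of 1 of them, Mc1r, did not overlap, against 10.6% of all genes. Mlana had a log2 fold change of 0.73 (95% interval 0.25 to 1.20) and Mc1r one of 0.49 (0.14 to 0.83).

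The lines differed among themselves. Rel was the highest of the 3 lines for 9 of the 10 genes and ITF1 the lowest for 9, the exception in both cases being Mc1r, for which ITF1 was highest and ITM lowest. The highest line exceeded the lowest by 6.71-fold for Oca2, 5.92-fold for Trpm1 and 3.22-fold for Slc45a2, but by 1.21-fold for Tyrp1. Without ITF1, 2 of the 10 genes passed the threshold, beside 0.540% of all genes called higher and 0.313% lower in that fit. They were Mlana with a log2 fold change of 0.96 (edgeR adjusted p = 0.0230) and Trpm1 with one of 2.35 (adjusted p = 0.0383). Without Rel, the log2 fold changes of Slc45a2 and Oca2 turned to -0.03 and -0.21.

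WT libraries also differed together. WT 1 was the highest of the 3 for 9 of the 10 genes and WT 3 the lowest for 9, with Mc1r again the exception, in the opposite order. WT 1 is the shallowest library and WT 3 the second deepest, and the part of depth in this order was not tested. Over the 45 pairs of the 10 genes, deviations from the group means correlated with a median Pearson r of 0.81 across the 12 libraries, and 36 pairs were above 0. The deviations share library, depth and scaling, and r is given as a description.

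Cultured cells exposed to T-cell granules were compared with WT. By the study's methods, the exposed cells were seeded on low-adherence plates coated with poly-l-lysine. Whether WT cells were plated alike is not stated, so granules and plating cannot be told apart. None of the 10 genes was called in Lyso by edgeR, where 3.50% of all genes were called higher and 1.21% lower. All 3 Lyso libraries lay above all 3 WT libraries for 7 of the 10 (Dct, Pmel, Mlana, Slc45a2, Oca2, Gpr143 and Trpm1), beside 27.4% of all genes whose libraries did not overlap in either direction. At an unadjusted p under 0.05, 5 of the 10 passed, against 18.7% of all genes. Oca2 had a log2 fold change of 1.52 (95% interval 0.49 to 2.54, adjusted p = 0.0949) and Gpr143 one of 0.97 (0.39 to 1.55, adjusted p = 0.0577). Tyrp1 had one of -0.04 (-0.44 to 0.36) and Mc1r one of 0.08 (-0.27 to 0.43). The median over the 10 genes was 0.63, against -0.00482 over all genes.

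In DESeq2, Oca2 and Gpr143 passed the threshold (adjusted p of 0.0187 and 0.0188), beside 4.32% of all genes called higher. With all genes kept in the edgeR fit, however low their counts, 5 of the 10 did so, beside 2.93% of all genes. Without WT 1, Gpr143 (1.13, edgeR adjusted p = 0.0473) and Trpm1 (2.60, adjusted p = 0.0188) passed, beside 4.02% of all genes. Lyso libraries also held more T-cell marker RNA: 5 of 12 markers exceeded 3 counts in every Lyso library and 0 did so in WT, and their summed level was 18.0 to 20.9 CPM against 1.77 to 7.36 CPM. In WT, 9 of the 12, among them Cd3d, Cd3e, Cd8a, Gzmb and Prf1, were at 0. The part of such RNA in the values above was not tested.

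Tumor cells sorted directly from relapsed tumors were compared with WT culture, with the cultured Relapsed lines and with Lyso. No group held cells sorted from untreated tumors, so growth in mice, sorting and relapse after therapy cannot be told apart. Against WT, Tyrp1 was the 1 gene of the 10 called lower and none was called higher, beside 6.94% and 12.1% of all genes. Libraries did not overlap for Tyrp1, Mlana and Gpr143, which were lower, and for Trpm1, which was higher, against 36.1% of all genes. The call of Tyrp1 was lost when any 1 of the Tumor libraries was left out. Its edgeR adjusted p then ran from 0.0528 without Tumor 4 to 0.110 without Tumor 1, with log2 fold changes of -0.57 to -0.73. Calls over all genes fell in the same fits, from 19.0% to between 12.4% and 13.5%. Without WT 1, 2 of the 10 genes were called higher and 2 lower, and Mc1r was then lower by -0.59 on the log2 scale (adjusted p = 0.00937). Calls over all genes also rose in that fit, from 2843 to 3714, which is 15.0% of all genes higher and 9.18% lower.

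Against the Relapsed lines, 4 of the 10 genes were lower in Tumor (Tyrp1, Mlana, Mc1r and Gpr143) and none was higher, beside 7.74% and 11.8% of all genes. The libraries of the same 4 did not overlap, against 37.5% of all genes. Each of the 4 stayed called with any 1 library of the 2 groups left out. The same 4 were called with either other scaling of the libraries. The other 6 gave log2 fold changes between -0.42 (Oca2, 95% interval -1.41 to 0.57) and 0.08 (Slc45a2, -0.62 to 0.78). Against Lyso, 4 genes, again Tyrp1, Mlana, Mc1r and Gpr143, were lower and none was higher, beside 10.5% and 14.2% of all genes. Libraries did not overlap for 8 of the 10 genes, against 54.9% of all genes. Tyrp1 and Mc1r lost this call when any 1 of the 6 libraries was left out, and 2 genes, Mlana and Gpr143, then remained. The smallest edgeR adjusted p was then 0.0515 for Tyrp1 and 0.0552 for Mc1r, both without Tumor 4. Calls over all genes fell in the same fits, from 24.7% to between 16.3% and 18.4%.

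**Figure D2:**
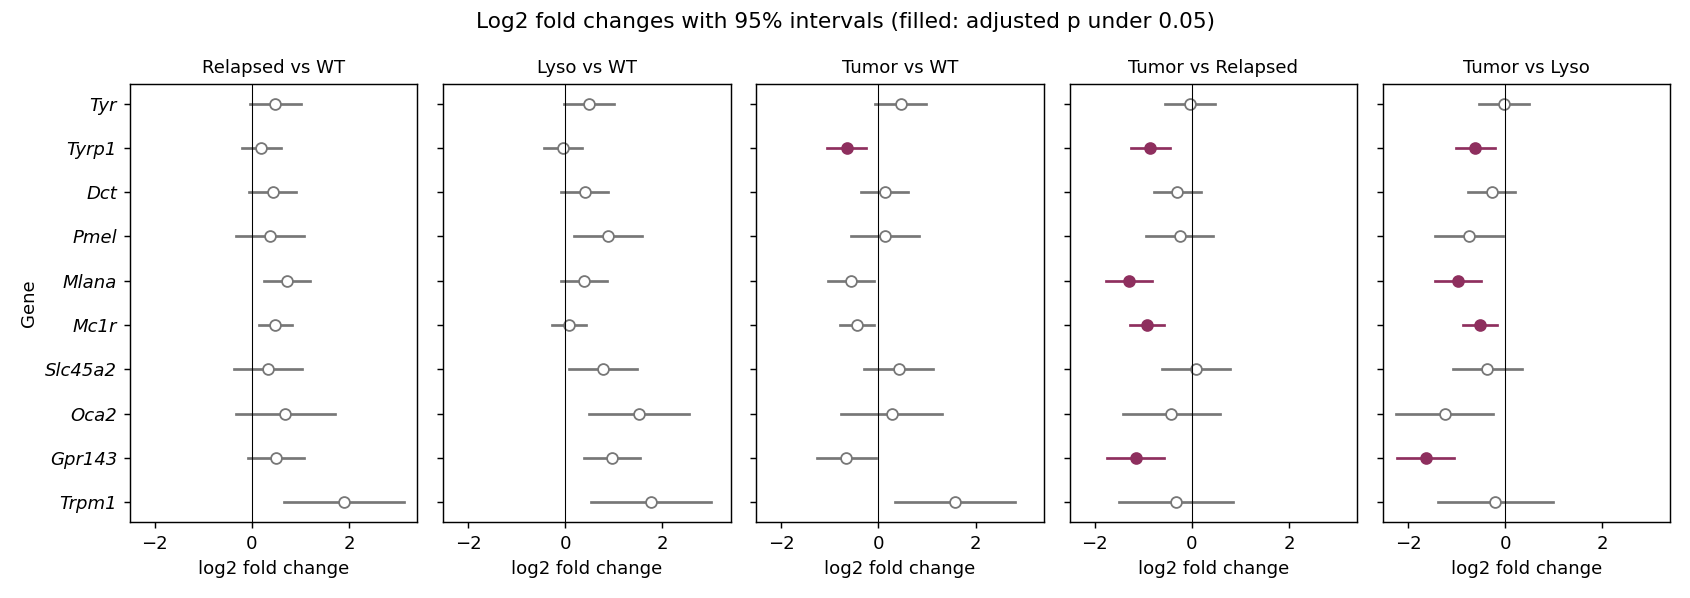
Log2 fold changes of the 10 genes (horizontal axes, edgeR) with 95% intervals in 5 comparisons, filled where the adjusted p was under 0.05. Filled points are Tyrp1 in Tumor against WT, and Tyrp1, Mlana, Mc1r and Gpr143 in Tumor against Relapsed and against Lyso.

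The Tumor libraries carried RNA of fibroblasts. All 10 fibroblast markers exceeded 3 counts in every Tumor library, with a summed level of 7707 to 10709 CPM against 30.0 to 39.5 CPM in WT. Myeloid markers did so for 7 of 10 (47.1 to 72.5 CPM against 15.3 to 30.6 in WT), endothelial markers for 6 of 8 (263 to 305 against 295 to 440.3), Schwann cell markers for 6 of 8 (434 to 658 against 299.8 to 413), keratinocyte markers for 2 of 10 (7.48 to 8.94 against 3.96 to 4.72) and T-cell markers for 1 of 12 (4.03 to 10.6). In WT, 4 fibroblast, 1 myeloid, 2 endothelial, 6 Schwann cell, 1 keratinocyte and 0 T-cell markers exceeded 3 counts in every library. Of those tested, edgeR called 10 of 10 fibroblast and 6 of 7 myeloid markers higher in Tumor than in WT. The same held for 4 of 6 endothelial and 1 of 7 Schwann cell markers, while 1 endothelial and 1 Schwann cell marker were lower. Over all genes, 12.1% were higher and 6.94% lower. Cd3d, Cd3e, Cd8b1, Krt1, Dsg3 and Trp63 were at 0 in all Tumor libraries. Fewer melanoma cells and less RNA per cell cannot be told apart in bulk libraries. The part of other cells in the lower or higher values of Tumor, for the 10 genes and for the lists below, was not tested.

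The ratio of 2 genes within a library does not depend on how libraries are scaled. The ratio of Tyrp1 to Dct counts was 1.55, 1.55 and 1.57 in WT 1, 2 and 3, and 0.796, 0.897 and 1.02 in Tumor 1, 3 and 4. It was 1.21, 1.11 and 1.11 in Lyso and 1.64, 1.09 and 1.42 in ITF1, Rel and ITM. WT agreed closely although its libraries differed in depth, and Tumor lay below all other libraries. The ratio of Mlana to Pmel was 0.274 to 0.354 in WT, 0.355 to 0.506 in Relapsed, 0.211 to 0.218 in Lyso and 0.173 to 0.213 in Tumor. Lyso and Tumor overlapped and both lay below WT and Relapsed. The 4 ratios shown were chosen after the values had been seen, and over their 24 comparisons a two-sided exact permutation test of 3 against 3 libraries cannot go below p = 0.1, which is 0.15 after Benjamini-Hochberg adjustment.

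**Figure D3:**
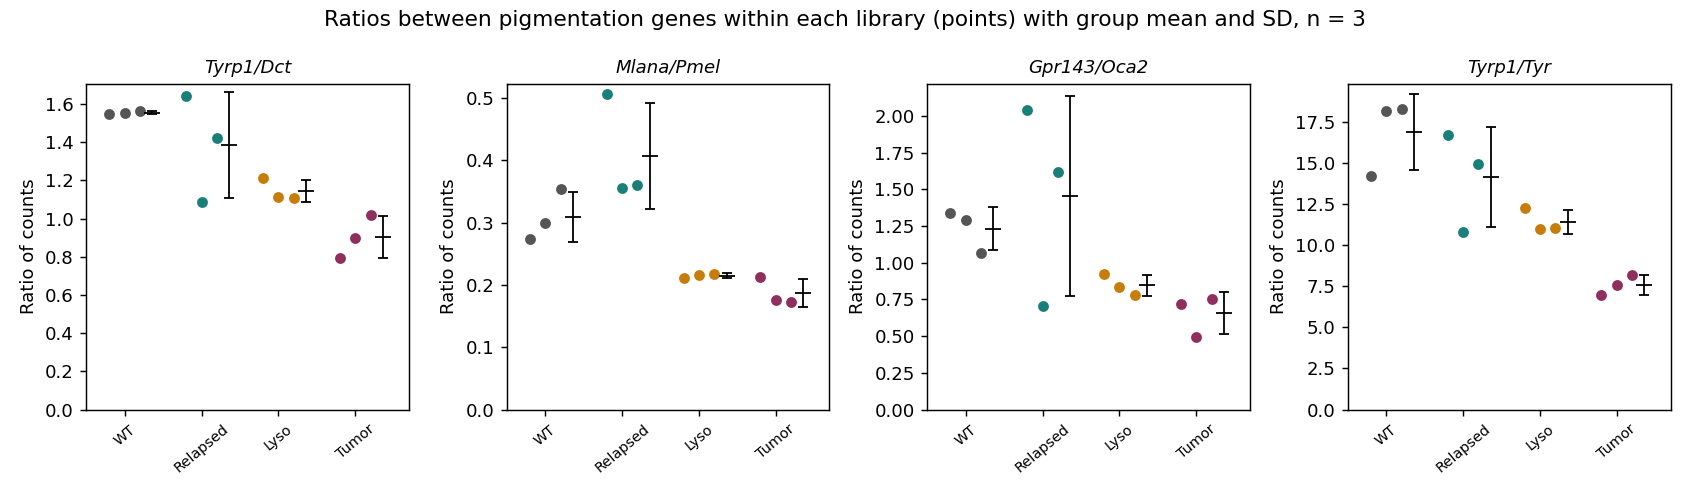
Ratios of counts between pairs of the genes (vertical axes from 0) in each library (points), with group mean and SD (bars, n = 3). Tyrp1 to Dct falls between 0.796 and 1.02 in Tumor and between 1.55 and 1.57 in WT.

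Ranked by mean CPM, Tumor was the lowest group for Tyrp1, Mlana, Mc1r and Gpr143, and WT for the other 6. The Relapsed lines were highest for Tyr, Tyrp1, Dct, Mlana, Mc1r and Trpm1, and Lyso for Pmel, Slc45a2, Oca2 and Gpr143. Of the 30 pairs of neighbours in these orders, 1 differed by the edgeR test, Tyrp1 between Tumor and Lyso. The remaining 29 were not called, and for 19 of them the 95% interval held 0 and the libraries overlapped. The interval excluded 0 for 5 of the uncalled pairs, namely Mlana, Mc1r, Gpr143 and Trpm1 between Tumor and WT and Mc1r between Lyso and Relapsed. Libraries did not overlap in 9 of the uncalled pairs. Among all genes, libraries did not overlap for 10.6% (Relapsed against WT) to 54.9% (Tumor against Lyso). An unadjusted edgeR p under 0.05 was reached by 11.0% to 37.1% of all genes in the same comparisons. Shares for neighbouring groups alone were not computed over all genes, so the counts of 5 and 9 pairs are given as a description.

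The transcription factors that act on these genes were given from a list of 8, of which 7 were tested. None was called in Relapsed or in Lyso against WT, beside 0.0402% and 4.71% of all genes in either direction. Mitf stood at 245, 459 and 620.4 CPM in WT 1, 2 and 3, at 424 to 446 in the Relapsed lines, at 456 to 481 in Lyso and at 925, 806 and 922 in Tumor 1, 3 and 4. All Tumor libraries lay above all other libraries, and WT 1, the highest WT library for 9 of the 10 pigmentation genes, was the lowest for Mitf. Mitf was higher in Tumor by 0.99 against WT (SE 0.24, edgeR adjusted p = 0.0113), by 1.02 against Relapsed (adjusted p = 0.00936) and by 0.91 against Lyso (adjusted p = 0.0143) on the log2 scale. Pax3, which acts upstream of Mitf, was higher in Tumor than in WT by 0.48 (adjusted p = 0.00854). Sox10, which activates Mitf and Dct, stood at 557 to 582 CPM in Tumor and at 530.4 to 596 in WT, and was called in no comparison. Against WT, Tfeb was also higher in Tumor (1.10, adjusted p = 0.0110), and Lef1, at 0 to 0.604 CPM in Tumor and 0 to 4.64 in WT, was called lower. Of the 7 tested, 3 (42.9%) were higher in Tumor than in WT and 1 (14.3%) lower, beside 12.1% and 6.94% of all genes. Against Relapsed, 1 was higher and 0 lower, beside 11.8% and 7.74% of all genes. Against Lyso, 1 was higher and 1 lower, beside 14.2% and 10.5%. The 4 genes lower in Tumor than in Relapsed thus had lower RNA in the libraries in which Mitf RNA was highest.

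Of 32 genes of melanosome biogenesis and transport, all were tested and none was called in Relapsed against WT by edgeR, beside 0.0402% of all genes. DESeq2 called 2 genes there over all 3 lists of related genes, beside 1.22% of all genes. In Lyso against WT, 4 of the 32 (12.5%) were higher and none was lower, beside 3.50% and 1.21% of all genes, with a median log2 fold change of 0.09 over the list. These were the only calls there over the 3 lists. Without WT 3, 2 were left, beside 2.85% of all genes. Without any 1 of the Lyso libraries 2 were also left, beside 2.24% to 2.32% of all genes. The 4 genes were Mfsd12 (1.21, edgeR adjusted p = 0.00651), a transporter needed for red pheomelanin, Atp7a (0.93, adjusted p = 0.00707), which supplies copper to tyrosinase, Bace2 (1.03, adjusted p = 0.0325), which cuts PMEL, and Myo5a (1.03, adjusted p = 0.0362), the motor that carries melanosomes. Mfsd12 stood at 66.5 to 76.2 CPM in Lyso and at 24.3 to 35.9 CPM in WT.

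Against the Relapsed lines, 9 of the 32 (28.1%) were lower in Tumor and none was higher, beside 7.74% and 11.8% of all genes, with a median of -0.36 over the list and -0.00749 over all genes. Those with the smallest p were Hps6, a subunit of the BLOC-2 complex (-1.33, edgeR adjusted p = 0.00134), Mlph, which links Rab27a to Myo5a (-1.08, adjusted p = 0.0166), Cd63, which sorts PMEL (-0.55, adjusted p = 0.0270), and Bloc1s2, a subunit of BLOC-1 (-0.66, adjusted p = 0.0275). Against WT, 3 of the 32 (9.38%) were higher in Tumor (Atp7a, Ap3b1 and Lyst) and 2 (6.25%) were lower (Hps6 and Bloc1s2), shares below the 12.1% and 6.94% of all genes. Against Lyso, 6 of the 32 (18.8%) were lower and none was higher, beside 10.5% and 14.2% of all genes, among them Mfsd12 (-1.75, adjusted p = 0.000112), Hps6 (-1.15), Bloc1s6 (-0.56) and Slc24a5 (-0.75). Over all 3 lists of related genes, 12 genes were called between Tumor and Relapsed, and 4 to 12 with 1 library left out. There were 4 without Tumor 4, 5 without Tumor 1 or Tumor 3 and 7 without Rel. Over all genes, the calls in this comparison also fell, from 2920 to 1976 without Tumor 4 and 2084 without Tumor 1. They were 2010 without Tumor 3 and 2700 without Rel. Between Tumor and WT, 12 of the listed genes were called, and 7 to 13 with 1 library left out, the lowest without WT 3. All-gene calls there went from 2843 to between 1720 and 3714, also lowest without WT 3. Between Tumor and Lyso, 11 of the listed genes were called, with 6 left without Lyso 3, Tumor 1 or Tumor 4 and 7 without Lyso 2. All-gene calls there fell from 3691 to between 2490 and 2806 with 1 library left out.

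**Figure D4:**
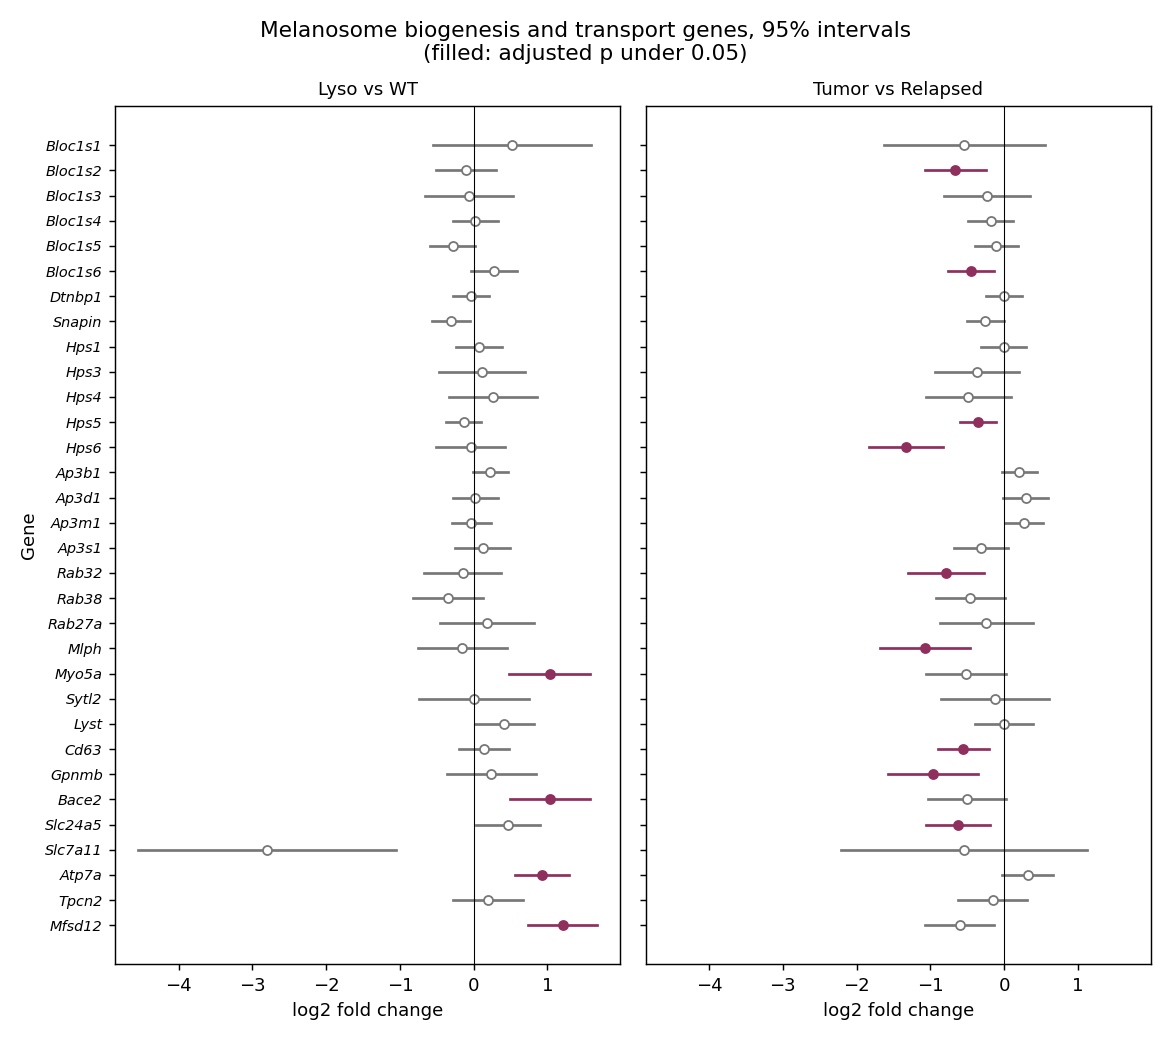
Log2 fold changes (horizontal axes, edgeR) with 95% intervals of 32 genes of melanosome biogenesis and transport, filled where the adjusted p was under 0.05. Lyso against WT shows 4 filled genes, all above 0, and Tumor against Relapsed shows 9, all below 0.

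Of 14 genes of melanocortin and endothelin signalling, 11 were tested. None was called in Relapsed or Lyso against WT, beside 0.0402% and 4.71% of all genes in either direction. Against WT, 3 of the 11 (27.3%) were higher in Tumor and none was lower, beside 12.1% and 6.94% of all genes. Gnas, the stimulatory G protein that couples MC1R to cyclic AMP, had 1635 to 1834 CPM in Tumor and 1125 to 1229 in WT (0.52, edgeR adjusted p = 0.0120). The endothelin receptors Ednrb and Ednra stood at 0.942 to 1.95 and 0.942 to 4.88 CPM in Tumor, near or at 0 in WT. Against Relapsed, 2 of the 11 (18.2%) were higher in Tumor, again Ednrb and Ednra, and none was lower, beside 11.8% and 7.74% of all genes.

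Genes with the most similar pattern were ranked by Pearson r with the mean z-score of the 10 genes over the 12 libraries. The 5 highest outside the 10 were Atp11a (0.974), Rarb (0.967), Slc24a5 (0.940), Mtch1 (0.937) and Ap1s2 (0.932). Among the 10 themselves, r ran from 0.332 for Mc1r to 0.942 for Dct. Tyrp1, with 31.8% to 45.0% of the counts on the 10 genes as a group mean, had 0.601. Each of the 10 weighs alike in the mean z-score, whatever its counts. Each is also part of that mean, which raises its own r.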

How the data were processed

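RNA of 12 libraries in 4 groups of 3 was analysed from raw counts per gene. Per the submitters' notes and methods, the authors trimmed reads with fastp 0.19.6, aligned them to GRCm38 with STAR 2.7.1a and deposited counts without normalization. The strand setting is not given in the sources used here. Of all reads, 36.2% to 39.4% fell on genes. Symbols and positions came from a GENCODE annotation of GRCm38. Groups came from the labels.

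Differences were computed with edgeR 4.0.16 in R 4.3.3 (glmQLFit, glmQLFTest, TMM, filterByExpr), in 1 fit of all libraries, and the steps were tested on simulated data. The simulation gave all genes the same spread. In Tumor against WT, 32 of 100 genes changed 2-fold and 88 of 100 changed 4-fold were called there. Of 14492 other genes, 5 were called. A gene that was not called can thus still differ by 2-fold. Alternatives were DESeq2 1.42.0, RLE factors, library size only, no filter, a minimum of 10 counts, 2-group fits, a fold threshold, other controls, a replicate block and leaving out each library. Those for Tumor against Lyso were added after the data were seen. All 10 genes are named, from each list of related genes at most 4 per direction with the smallest p plus Mitf, Sox10 and Pax3, and the 5 most similar genes. The genes and lists were chosen with earlier results of these data known.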

Additional observations from a re-analysis of the deposited data

How the results depend on the processing

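With no filter on low counts, 2 genes (Mlana and Trpm1) instead of 0 were called in Relapsed against WT, 5 instead of 0 in Lyso against WT and 5 instead of 1 in Tumor against WT, beside 1.46%, 4.73% and 11.9% of all genes. In Lyso against WT, 2 were called by DESeq2, 2 in a fit of the 2 groups only and 3 with the replicate block, beside 6.40%, 6.53% and 5.88% of all genes. In Tumor against WT, library size scaling gave 2 (20.0% of all genes), and the 2-group fit, an added log2 fold threshold of 1 and the replicate block each gave 0 (16.8%, 10.8% and 13.4%). The fold threshold left 2 of 4 in Tumor against Relapsed (10.7% of all genes) and 1 of 4 in Tumor against Lyso (12.9%). The 2-group fit of Tumor and Lyso called 8, while calls over all genes rose from 24.7% to 46.8%. With 1 library left out, the calls ranged from 0 to 2 in Relapsed against WT, 0 to 2 in Lyso against WT and 0 to 4 in Tumor against WT, and were 4 in each case in Tumor against Relapsed and 2 in each case in Tumor against Lyso. Over all genes, library size scaling changed the calls in Lyso against WT from 522 higher and 181 lower to 440 higher and 337 lower. The cause of these changes was not tested.

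Log2 fold changes that turned sign, none of them called, were Tyrp1 (0.20) and Mc1r (-0.14) in Lyso against WT 3 alone, Mc1r (-0.019) there with library size scaling, Pmel (-0.10) in Tumor against WT 1 and WT 2 alone, Tyr in Tumor against Relapsed with a minimum of 10 counts (0.0091) and Tyr in Tumor against Lyso with library size scaling (0.0013). With 1 library left out, the ranges that crossed 0 were -0.033 to 0.68 for Slc45a2 and -0.21 to 1.13 for Oca2 in Relapsed against WT, and -0.14 to 0.095 for Tyrp1 and -0.066 to 0.21 for Mc1r in Lyso against WT. In Tumor they were -0.10 to 0.32 for Pmel against WT and -0.083 to 0.0016 for Tyr against Lyso. Against Relapsed they were -0.21 to 0.28 for Tyr (0.0010 without Tumor 1), -0.59 to 0.0026 for Pmel, -0.27 to 0.44 for Slc45a2, -0.86 to 0.48 for Oca2 and -0.77 to 0.27 for Trpm1.

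Replicate numbers shared by WT, Lyso and Tumor were not taken as pairing. Deviations of WT and Lyso libraries of the same number correlated with r of 0.0056, -0.0065 and -0.00015. Those of WT 1 with Tumor 1 and of WT 3 with Tumor 3 had r of 0.065 and -0.0052. In order of listing, WT 2 with Tumor 3 and WT 3 with Tumor 4 both had r of 0.059. The other pairs of WT and Tumor ran from -0.053 to -0.0087, and pairing by order was not tested. WT 1, WT 2 and the Tumor libraries are shallow, so depth and group are partly confounded.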
